A study of Mus musculus with 81 samples.

Results

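Histone H3.3 is the replication-independent form of histone H3, and 2 genes, H3f3a and H3f3b, encode the same protein. The RNA of resting macrophages in which both genes were targeted was compared with that of WT macrophages in bone marrow-derived macrophages (BMDMs) on day 8 of culture without interferon. These untreated day 8 cells gave 5 of the 81 libraries of the series, 3 from WT mice and 2 from mice labelled H3.3 cKO (cKO below). They were chosen by genotype, day and treatment in the sample labels, and both remaining cKO libraries of day 8, whose title and library name disagree on whether interferon-γ (IFNg) was given, were left out. WT mice carried loxP sites in both H3.3 genes (H3f3a fl/fl, H3f3b fl/fl) and no Cre, and cKO mice carried the same floxed genes with LysM-cre on both alleles, on the C57BL/6 background. LysM-cre is an insertion in Lyz2, the lysozyme gene of the myeloid lineage, so Lyz2 was disrupted in the cKO cells as well, and its loss cannot be told apart from that of H3.3. The Cre is active in myeloid cells as they mature, and BMDMs were grown from bone marrow of adult mice of either sex in medium with L929 cell supernatant, a source of the macrophage growth factor M-CSF.

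In most cells H3.3 is laid down at active genes, regulatory elements and repeats by the chaperones HIRA and ATRX-DAXX throughout the cell cycle, so that it becomes a main form of H3 in cells that have stopped dividing. Macrophages express a low level of interferon-stimulated genes (ISGs) at rest. When type I interferon binds IFNAR, or IFNg its own receptor, transcription factors activated by the receptors bind the interferon-stimulated response element (ISRE) or the gamma-activated site (GAS) near ISG promoters and raise their transcription. Macrophages also make and take up cholesterol and fatty acids, and the genes of sterol synthesis are switched together by SREBP2.

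The 5 libraries held 7284793 to 9879339 counts on genes. Between 14.4% and 18.3% of their reads were unmapped. No pair of replicates was so alike as to be a duplicate. WT replicate 3 stood apart in sex: it had 1049 CPM (counts per 1e+06 counts on genes, after scaling of the libraries to each other) of Xist and 0 CPM over 4 Y-linked genes, whereas the other 4 libraries had at most 0.2435 CPM of Xist and 160.6 to 205.4 CPM over the Y-linked genes. The fit that gives all fold changes below holds 10 libraries, these 5 and 5 of day 8 cells with IFNg, which share one estimate of the spread between replicates. One of the latter, cKO IFNg replicate 1, was poor, with 3614967 counts and 57.1% of its reads unmapped, so the main counts of called genes are also given without it. The labels call the replicates biological. In bulk RNA, fewer cells of a type and less RNA per cell cannot be told apart.

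The targeted genes were read first. H3f3a (chr1:180800832-180813943 in GRCm38, minus strand), of which exon 2 is floxed, had 41.37, 43.55 and 46.75 CPM in the WT libraries and 7.306 and 7.334 CPM in the cKO libraries. Both cKO libraries lay far below every WT library, at 16.7% of the WT mean, and the log2 fold change (cKO minus WT) was -2.58 ± 0.274 (SE, adjusted p = 0.00284, edgeR's quasi-likelihood test with Benjamini-Hochberg adjustment over all genes, as for every adjusted p below). H3f3b (chr11:116021912-116027962, minus strand), of which exons 1 to 4 are floxed, had 205.5, 244.2 and 225.9 CPM in WT and 173.3 and 187.1 CPM in cKO. The groups did not overlap, but cKO kept 80% of the WT mean, with a log2 fold change of -0.32 ± 0.167 and adjusted p = 0.916. H3f3a overlaps annotated antisense genes, whose reads cannot be told from its own in counts without strand. The H3f3b mRNA goes partly against the label, and the libraries are called cKO here as they were labelled. Lyz2 (chr10:117277331-117282321), the site of the Cre, fell from 9648, 9500 and 9458 CPM to 4.708 and 5.965 CPM, a log2 fold change of -10.8 ± 0.761 (adjusted p = 0.000382). Of 22, 54 and 14 further tested genes within 1 Mb of H3f3a, H3f3b and Lyz2, 0 were called. With 0.612% of all genes called, 0 among so few says little about these loci. In 6, 18 and 5 of them the groups did not overlap. Over all genes both cKO libraries lay above every WT library in 18% and below in 13.9%.

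Of 13075 genes tested, 80 were called at an adjusted p under 0.05 (0.612%), 66 of them higher in cKO (0.505%) and 14 lower (0.107%). The median log2 fold change over all genes was 0.01, and 808 genes had an unadjusted p under 0.05. In 2357 genes (18%) both cKO libraries lay above every WT library, and in 1820 (13.9%) below. Interferon genes were the largest group among the 66 higher genes: 34 are members of 7 lists of interferon-related genes, and 5 belong to other lists, namely Cd209f, Cd209g, Siglec1, Ccnd2 and Ly6a. The other 27 are in no list, among them Oas1b, Ddx60, Helz2, H2-Q5 and Ly6e, so this split depends on what the lists hold. The 14 lower genes include H3f3a, Lyz2 and 4 genes of sterol and fatty acid synthesis, Scd2, Cyp51, Lss and Idi1. How many genes passed depended on which libraries were in the fit. Without the poor IFNg library 223 genes were higher (1.62%) and 69 lower (0.500%), and with only the 5 untreated libraries 274 were higher (2.20%) and 93 lower (0.745%), and either set held all 80.

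**Figure D1:**
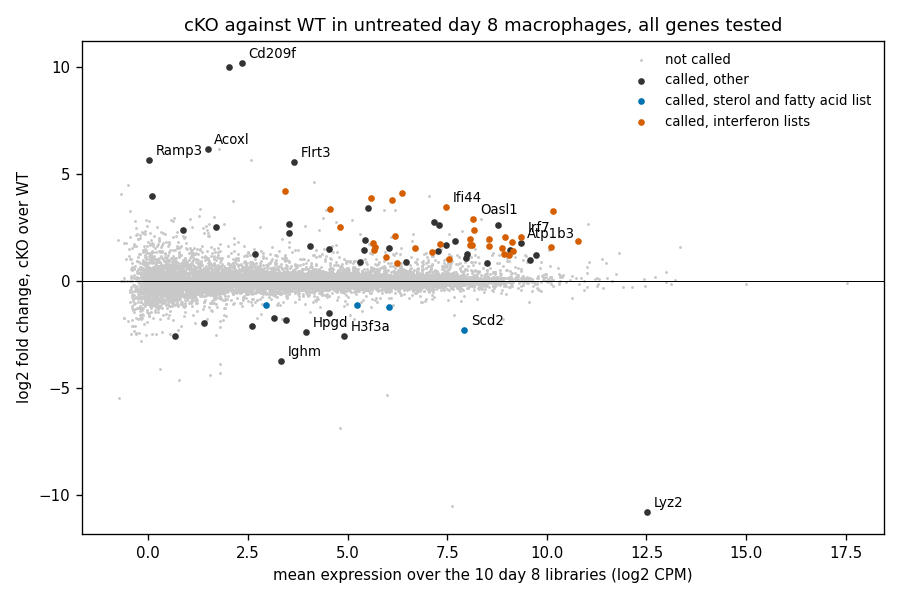
Log2 fold change of cKO against WT (y axis) against mean log2 CPM over the 10 libraries of the fit (x axis) for 13075 genes. Called interferon genes (orange), sterol genes (blue) and other called genes (black) stand out from a cloud of genes centred at 0.01.

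Leaving out 1 of the 5 libraries lowered the number of calls, to 49, 43 and 21 without WT replicate 1, 2 and 3, and to 23 and 10 without cKO replicate 1 and 2. In each of these fits all 80 genes kept their direction, but each fit reuses libraries by which the genes were chosen. Each also kept the poor IFNg library, and a fit without either cKO library holds 1 untreated cKO library. Called in every one were 9 genes: Atp1b3, Cd209f, Flrt3, Ifit1, Ifit3, Lyz2, Oasl1, Scd2 and Slfn4. The medians without WT replicate 3, the library of the other sex, are given for the antiviral, PYHIN, GTPase, MHC class I and sterol lists.

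The 7 interferon genes that were listed were at or near 0, and other interferon genes were not looked at. Of 7 interferon genes 0 reached the level tested, 6 of them (Ifna2, Ifna4, Ifna5, Ifng, Ifnl2 and Ifnl3) had 0 counts in all 5 libraries, and Ifnb1 had 0, 1 and 1 counts in WT and 0 and 3 in cKO. That is 2 WT and 3 cKO counts, which is no more than the 3 counts that 0 allows, so no difference was detectable at this depth. Ifnar1, a chain of the type I receptor, had a log2 fold change of -0.24 and was not called. Among 18 tested genes of interferon signalling, 1 was called, and the median log2 fold change was 0.15. It was Irf7, the transcription factor that amplifies type I interferon responses, with 54.87, 63.51 and 43.94 CPM in WT and 200.7 and 256.9 CPM in cKO. Both cKO libraries were over 3 times the highest WT library, and Irf7 rose by a log2 fold change of 2.08 ± 0.234 (adjusted p = 0.00348). Of the 18 genes, 16 had a log2 fold change above 0, and in 6 (against 18% of all genes) both cKO libraries lay above every WT library. The number called higher was 5 without the poor IFNg library and 6 with only the 5 untreated libraries. Stat2, a transcription factor of the type I response, had a log2 fold change of 1.22 (adjusted p = 0.0634, or 0.00258 with only the 5 untreated libraries).

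ISGs whose products act on viruses made up the largest group of genes that rose. Of 37 tested antiviral effectors 19 were higher and 0 lower, all 37 had a log2 fold change above 0, and the median was 1.46. In 36 of 37 (97.3%, against 18% of all genes) both cKO libraries lay above every WT library. Their summed level was 2490 to 3030 CPM in WT and 5800 to 5920 CPM in cKO. Without the poor IFNg library 33 were higher. Leaving out WT replicate 1 or 2 left 14 higher, WT replicate 3 or cKO replicate 1 left 7, and cKO replicate 2 left 4, and the median without WT replicate 3 was 1.32. The lists were drawn up with earlier results of these data known, so their counts are descriptions.

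**Figure D2:**
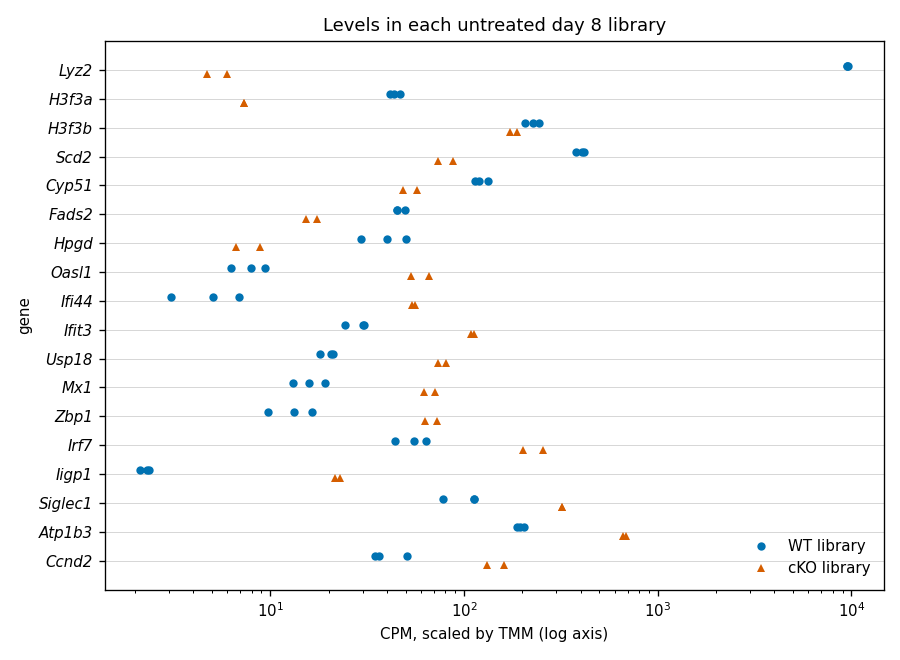
CPM (log axis) of selected genes in each untreated day 8 library, 3 WT (blue circles) and 2 cKO (orange triangles). Cells labelled cKO hold almost no Lyz2 and less H3f3a and Scd2, and more of Irf7, Ifit3, Oasl1 and the other plotted genes that rose, with no overlap of the groups.

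Oasl1, an inactive relative of the oligoadenylate synthetases that restrains translation of Irf7, had 9.437, 7.966 and 6.303 CPM in WT and 53.17 and 65.91 CPM in cKO, which is 7.53-fold higher. The log2 fold change was 2.92 ± 0.212 (adjusted p = 0.000382). Ifi44, a widely used marker among ISGs, rose 10.9-fold, from 5.048, 6.904 and 3.064 CPM to 53.74 and 55.64 CPM (log2 fold change 3.46 ± 0.407, adjusted p = 0.00462). Both cKO libraries thus lay several times above the highest WT library at either gene. Apol9b, a lipid-binding apolipoprotein L gene, went from 5, 1 and 1 counts to 48 and 55 counts, with a log2 fold change of 4.21 ± 0.565 (adjusted p = 0.00796). Its near-identical neighbour Apol9a may share reads with it, so its own level is uncertain.

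The Ifit genes, whose products bind foreign RNA ends, lie side by side on chromosome 19 (34550694 to 34650009), and 4 of the 6 tested genes in that span rose. Ifit3 had 29.96, 30.38 and 24.34 CPM in WT and 108.2 and 112.3 CPM in cKO, a log2 fold change of 1.97 ± 0.198 (adjusted p = 0.00213). Ifit1 had 42.03, 34.73 and 31.34 CPM in WT and 129.4 and 125 CPM in cKO, a log2 fold change of 1.82 ± 0.19 (adjusted p = 0.00269). Cells labelled cKO held 3 to 4 times the WT level of both. Ifit2 and Ifit3b rose by 1.87 and 2.12 on the log2 scale, and Ifit3 and Ifit3b are close copies that can share reads.

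Isg15, a ubiquitin-like protein that is joined to other proteins during infection, had 14.59, 15.61 and 10.24 CPM in WT and 42.62 and 44.79 CPM in cKO (log2 fold change 1.7 ± 0.232, adjusted p = 0.00843). Usp18, the protease that removes it and a brake on IFNAR, rose from 20.63, 18.06 and 21.18 CPM to 73.79 and 80.97 CPM (1.95 ± 0.219, adjusted p = 0.00348). The means of modifier and remover were thus both over 3 times as high in cKO. Mx1, a GTPase gene, had 19.09, 15.83 and 13.04 CPM in WT and 71.11 and 61.8 CPM in cKO (2.06 ± 0.237, adjusted p = 0.00407). Its neighbour Mx2 rose by 1.58 on the log2 scale. Zbp1, a sensor of Z-form nucleic acid that can start necroptosis, went from 13.28, 16.36 and 9.717 CPM to 62.91 and 72.46 CPM (2.37 ± 0.262, adjusted p = 0.00348). Rsad2, which makes a chain-terminating nucleotide, and the 2'-5' oligoadenylate genes Oasl2 and Oas3 rose by 1.6, 1.56 and 1.4.

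The promoters of genes that rose were read for the ISRE core, whose letters are GAAANNGAA on either strand, in the 250 bases upstream of each RefSeq start in GRCm38.p6. RefSeq promoters were found for 56 of the 80 called genes. The ISRE core was present in 18 of 52 promoters of higher genes (34.6%), in 0 of 12 of lower genes, in 6.5% of the promoters of all genes tested and in 7.13% of all promoters. The GAS letters, TTCNNNGAA, were present in 8 of 52 promoters of higher genes (15.4%), 0 of 12 of lower genes, 5.86% of those of genes tested and 7.02% of all. Matches are descriptions of letters and not of binding. Among the 12 higher genes with the largest change, Flrt3, H2-Q6, Ifi44, H2-Q7, Oasl1 and Hap1 had 0 matches to the ISRE core. For Gbp6, Pou3f1 and Iigp1, also among the 12, no RefSeq promoter was found. Shown are the promoters of the 3 genes with the largest rise that hold the ISRE core and, chosen after their values were seen, those of Ifit1 and Isg15, each 5′ to 3′ on the strand of the gene and ending at the base before the start, with matches to the ISRE core in capitals. Apol9b (chr15:77728822-77729071, plus strand) has 2 overlapping matches, Ifi213 (chr1:173599273-173599522, minus strand) has 1, Gm1966 (chr7:106644646-106644895, minus strand) has 1 in a stretch rich in T, Ifit1 (chr19:34640639-34640888, plus strand) has 3 and Isg15 (chr4:156200819-156201068, minus strand) has 3. The RefSeq start of Gm1966 lies outside the gene as GENCODE draws it.
Apol9b: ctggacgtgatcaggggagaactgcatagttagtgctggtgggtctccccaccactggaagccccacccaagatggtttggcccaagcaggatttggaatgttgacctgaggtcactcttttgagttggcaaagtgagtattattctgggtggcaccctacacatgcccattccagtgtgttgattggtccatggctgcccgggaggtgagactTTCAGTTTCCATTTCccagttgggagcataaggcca
Ifi213: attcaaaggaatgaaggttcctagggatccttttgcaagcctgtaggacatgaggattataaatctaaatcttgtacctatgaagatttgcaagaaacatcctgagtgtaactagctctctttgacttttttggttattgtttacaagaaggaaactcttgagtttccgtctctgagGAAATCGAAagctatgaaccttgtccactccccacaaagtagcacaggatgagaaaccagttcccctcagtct
Gm1966: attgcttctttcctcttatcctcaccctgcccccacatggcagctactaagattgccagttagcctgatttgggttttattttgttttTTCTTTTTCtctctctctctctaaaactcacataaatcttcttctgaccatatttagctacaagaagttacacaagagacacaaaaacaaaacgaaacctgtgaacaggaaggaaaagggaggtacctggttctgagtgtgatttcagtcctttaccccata
Ifit1: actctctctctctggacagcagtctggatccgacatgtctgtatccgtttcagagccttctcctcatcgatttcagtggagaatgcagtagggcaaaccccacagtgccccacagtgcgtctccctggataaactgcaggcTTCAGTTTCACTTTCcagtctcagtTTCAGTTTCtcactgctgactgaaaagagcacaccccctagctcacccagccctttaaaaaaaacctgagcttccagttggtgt
Isg15: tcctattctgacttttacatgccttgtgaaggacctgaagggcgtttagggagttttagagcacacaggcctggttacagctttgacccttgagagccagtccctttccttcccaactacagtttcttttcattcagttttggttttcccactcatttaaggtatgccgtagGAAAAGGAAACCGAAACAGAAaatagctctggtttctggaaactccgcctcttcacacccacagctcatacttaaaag

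The PYHIN (Ifi200) genes, which encode DNA-binding and DNA-sensing proteins, lie in a row on chromosome 1. Of 10 tested, 3 rose and 0 fell, and the median log2 fold change was 1.41 (1.31 without WT replicate 3). Leaving out WT replicate 1 or 2 left 1 or 2 calls, and leaving out WT replicate 3 or either cKO library left 0. With the poor IFNg library left out 8 were higher, and in the fit of the 5 untreated libraries 8 of 9. Ifi213 had 1.975, 3.93 and 1.313 CPM in WT and 34.66 and 30.12 CPM in cKO, a log2 fold change of 3.77 ± 0.526 (adjusted p = 0.0095), and its promoter is shown above. Ifi204, a sensor of DNA in macrophages, went from 79.67, 94.21 and 70.64 CPM to 207.9 and 181.1 CPM (1.26 ± 0.2, adjusted p = 0.0199). Ifi211 rose by 1.56 on the log2 scale.

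The interferon-inducible GTPases, which gather on vacuoles that hold pathogens, gave 5 higher and 0 lower genes of 18 tested, with a median of 1.31 (1.23 without WT replicate 3). Leaving out WT replicate 1 or 2 left 3 calls, cKO replicate 1 left 2, WT replicate 3 left 1 and cKO replicate 2 left 0. The number called higher was 14 without the poor IFNg library and 14 of 14 with only the 5 untreated libraries. Iigp1 had 2.304, 2.124 and 2.364 CPM in WT and 21.51 and 22.79 CPM in cKO, 9.78-fold higher (log2 fold change 3.28 ± 0.396, adjusted p = 0.00485). Gbp6 went from 1, 3 and 2 counts to 35 and 47 counts (4.11 ± 0.6, adjusted p = 0.0117). Both were thus almost silent in resting WT cells. Gbp3 and Gbp7 rose by 1.63 and 1.68 on the log2 scale. Of 7 Schlafen genes, regulators of growth and of viral protein synthesis, 1 rose, Slfn4, with 1.865, 2.018 and 1.401 CPM in WT and 10.15 and 10.46 CPM in cKO (2.55 ± 0.245, adjusted p = 0.00213). In the fits without the poor IFNg library and with only the 5 untreated libraries, 6 of the 7 were higher.

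The genes of MHC class I presentation gave 5 higher and 0 lower of 21 tested, all 21 above 0 with a median of 0.83 (0.77 without WT replicate 3). In 20 (95.2%, against 18% of all genes) both cKO libraries lay above every WT library. Leaving out WT replicate 1, WT replicate 2 or cKO replicate 1 left 2 calls, WT replicate 3 left 1 and cKO replicate 2 left 0. With the poor IFNg library left out 14 were higher, and in the fit of the 5 untreated libraries 15. Tap1, the peptide pump of the endoplasmic reticulum, had 77.47, 69.36 and 71.26 CPM in WT and 155.7 and 177.9 CPM in cKO, a log2 fold change of 1.2 ± 0.205 (adjusted p = 0.0297). The class I gene H2-Q6 went from 2.085, 1.699 and 0.4377 CPM to 15.75 and 25.33 CPM (3.9 ± 0.437, adjusted p = 0.00348). H2-Q7, H2-Q4 and H2-T22 rose by 3.37, 1.38 and 1.03. The H2-Q genes are near-identical neighbours (chr17:35379617-35443773), so the share of each is uncertain. MHC class II genes gave 0 calls among 10 tested with a median of -0.36.

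Sensors of foreign nucleic acid gave 0 calls among 15 tested, with a median of 0.48, and 7 had an unadjusted p under 0.05. The number called higher was 6 without the poor IFNg library and 7 with only the 5 untreated libraries. Ddx58, which encodes RIG-I, had a log2 fold change of 1.22 (adjusted p = 0.0831, or 0.000489 with only the 5 untreated libraries). Tmem173, which encodes STING, had 0.55 (adjusted p = 0.81, or 0.0605 with only the 5 untreated libraries) and passed in 1 of 13 alternative fits. Over the 126 tested genes of the 7 interferon lists together, 34 were higher (27%, against 0.505% of all genes) and 0 lower. In 102 (81%, against 18% of all genes) both cKO libraries lay above every WT library.

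**Figure D3:**
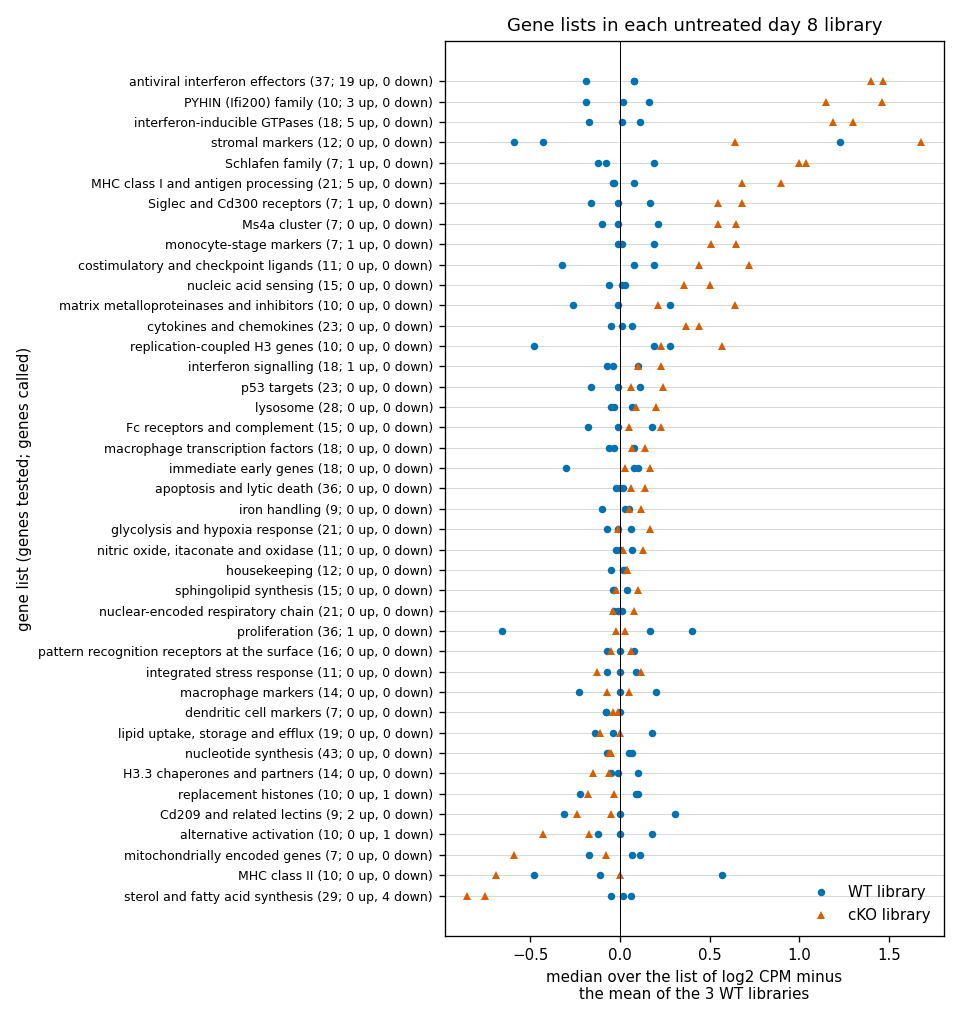
Median over each gene list of the log2 CPM of a library minus the WT mean (x axis), for each WT library (blue) and cKO library (orange), with the number of genes tested and called. The antiviral list lies between -0.19 and 0.08 in WT and at 1.47 and 1.4 in cKO, and the sterol list between -0.05 and 0.06 in WT and at -0.85 and -0.75 in cKO.

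Levels in WT cells given IFNg for 12 h are a scale for these values, with no test. The 34 called interferon genes all had a higher mean in WT with IFNg than in resting WT, and in 32 of them resting cKO lay between. The median level in resting cKO was 26.6% of that in WT with IFNg. Iigp1 had 2890 ± 271 CPM (SD, n = 3) in WT with IFNg, far above resting cKO. Mx1 had 587 ± 149 CPM and Irf7 had 638 ± 110 CPM. The exceptions were H2-Q6 and H2-Q7, at 14.5 ± 3.42 and 6.46 ± 1.44 CPM in WT with IFNg, which resting cKO exceeded.

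Other genes rose that are not ISGs of the fixed lists. The largest rise among genes with at least 1 count in each WT library was in Flrt3, an adhesion and guidance receptor of the cell surface, from 0.1097, 0.8497 and 0.6128 CPM to 23.54 and 28.07 CPM. That is 49.2-fold higher, a log2 fold change of 5.56 ± 0.497 (adjusted p = 0.00187). Its level in WT with IFNg was 0.395 ± 0.318 CPM, no higher than in resting WT. Cd209f and Cd209g, neighbouring C-type lectin genes related to DC-SIGN, had 0 counts in all 3 WT libraries. Cd209f had 190 and 188 counts in cKO, at least 169-fold higher, and Cd209g had 134 and 194, at least 149-fold higher, against a floor of 3 counts over the WT group (0.1 CPM). They were also at 0 CPM in WT with IFNg. These genes were therefore detected in both cKO libraries and in no WT library.

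Atp1b3, a β-subunit of the sodium pump, had 188.3, 195.2 and 203.9 CPM in WT and 664.9 and 687.1 CPM in cKO (log2 fold change 1.79 ± 0.177, adjusted p = 0.00213). Siglec1 (CD169), a sialic acid receptor of macrophages that is widely used as an interferon marker, had 112.3, 112.6 and 77.91 CPM in WT and 321.1 and 320.7 CPM in cKO (1.67 ± 0.213, adjusted p = 0.00625). In WT with IFNg its level was 72.2 ± 6.07 CPM, below that of resting cKO. Ccnd2, a D-type cyclin, had 50.7, 34.84 and 36.5 CPM in WT and 132.2 and 160.4 CPM in cKO (1.85 ± 0.233, adjusted p = 0.0061). Csf1, which encodes M-CSF, the growth factor of these cultures, had 11.19, 19.12 and 10.24 CPM in WT and 31.58 and 42.64 CPM in cKO (1.46 ± 0.265, adjusted p = 0.0405). At each of these genes both cKO libraries lay above every WT library.

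Ly6a (Sca-1), a surface protein of stem cells that interferons also raise, had 29.19, 19.01 and 13.48 CPM in WT and 103.4 and 149.3 CPM in cKO (2.62 ± 0.359, adjusted p = 0.00843), and its neighbour Ly6e rose by 1.24. Pou3f1, a POU-domain transcription factor, went from 2, 5 and 2 counts to 31 and 44 counts (3.42, adjusted p = 0.0103), Hap1 rose by 2.69, and Gm1966, a GTPase pseudogene, by 2.78. Acoxl went from 0, 0 and 2 counts to 69 and 64, Ramp3 from 0, 0 and 1 to 23 and 30, and Plekhg4 from 1, 0 and 1 to 15 and 13. Ramp3, Plekhg4 and Csf1 were chosen after their values were seen.

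Of the 80 genes, 29 lay in 11 clusters in which each called gene is within 500 kb of the next. Beside the Ifit, PYHIN and H2-Q clusters these included Oas3, Oas1b and Oas1g, Oasl1 and Oasl2, Mx1 and Mx2, Gbp3 and Gbp7, Gbp6 and Gbp8, Cd209f and Cd209g, and Ly6a and Ly6e. Reads shared between such related copies can make neighbours move together, and this was not tested.

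The genes of sterol and fatty acid synthesis had lower levels in cKO along the whole list. All 29 tested genes of the list had a log2 fold change below 0, 4 were called lower and 0 higher, and the median was -0.86. In 28 of 29 (96.6%, against 13.9% of all genes) both cKO libraries lay below every WT library, and 27 had an unadjusted p under 0.05. The summed level was 3020 to 3160 CPM in WT and 1670 to 1690 CPM in cKO. Without the poor IFNg library 24 were lower, and with only the 5 untreated libraries 26. Leaving out WT replicate 1 or 2 left 2 lower, and leaving out WT replicate 3 or either cKO library left 1, and the median without WT replicate 3 was -0.91.

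**Figure D4:**
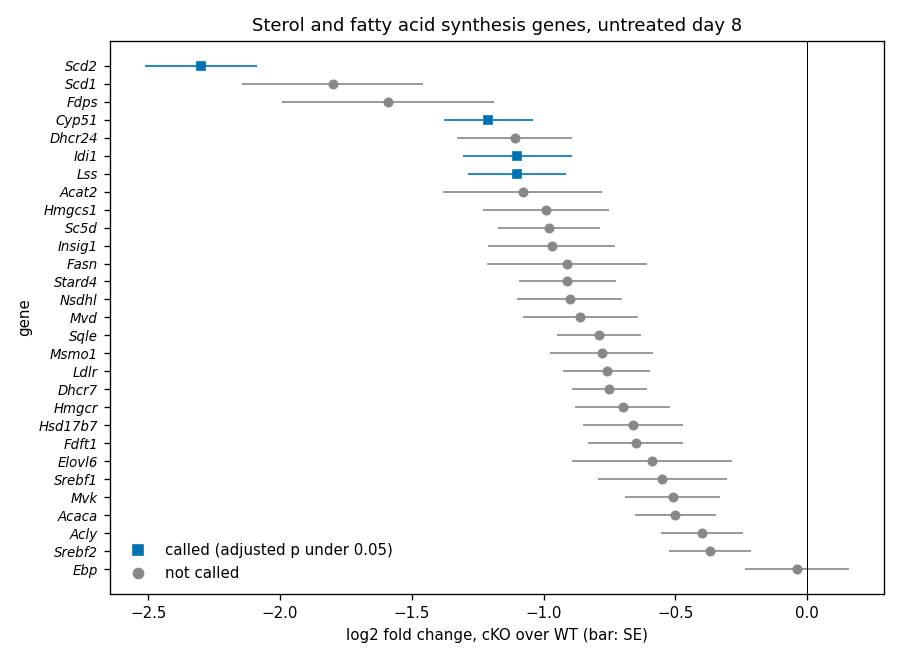
Log2 fold change of cKO against WT (x axis, bars ± SE) for the 29 tested genes of sterol and fatty acid synthesis, with the 4 called genes as squares. All 29 points lie below 0, from -2.3 for Scd2 upwards.

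Scd2, a stearoyl-CoA desaturase that makes monounsaturated fatty acids, had 407.7, 376.8 and 414 CPM in WT and 73.79 and 88.01 CPM in cKO, a log2 fold change of -2.3 ± 0.213 (adjusted p = 0.00194). Its relative Scd1 had 18, 14.23 and 15.23 CPM in WT and 3.247 and 5.867 CPM in cKO (-1.8 ± 0.344, adjusted p = 0.0513). The desaturases of both loci thus lay below the WT range in both cKO libraries, with Scd1 just short of the threshold. Fads2, the desaturase of polyunsaturated fatty acids, fell from 44.99, 45.25 and 49.55 CPM to 15.26 and 17.41 CPM (-1.51 ± 0.202, adjusted p = 0.00784). Fads2 is not a member of the list.

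Cyp51, which demethylates lanosterol, had 114.5, 133.6 and 119 CPM in WT and 57.23 and 48.21 CPM in cKO (-1.21 ± 0.168, adjusted p = 0.00891). Lss, which closes the sterol rings, had 64.19, 63.09 and 56.02 CPM in WT and 30.2 and 26.6 CPM in cKO (-1.1 ± 0.186, adjusted p = 0.0268). Mean levels in cKO stood at 0.431 and 0.465 of WT, and Idi1, an isomerase of the early mevalonate path, fell from 14.05, 12.96 and 14.44 CPM to 6.413 and 6.454 CPM (-1.1 ± 0.207, adjusted p = 0.0499). Fdps had a log2 fold change of -1.59 (adjusted p = 0.185).

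The other lower genes have varied roles. Hpgd, which inactivates prostaglandins, had 39.94, 50.13 and 29.33 CPM in WT and 6.656 and 8.801 CPM in cKO (-2.37 ± 0.298, adjusted p = 0.0061). Cbr2, a carbonyl reductase used as a marker of some tissue macrophages, had 15.36, 14.13 and 21.97 CPM in WT and 4.14 and 5.574 CPM in cKO (-1.83 ± 0.294, adjusted p = 0.0206). Itga8 (an integrin chain), Kcnj10 (a potassium channel), Prrg1 (a membrane protein with a Gla domain) and Sntb1 (a syntrophin) fell by 1.74, 2.1, 1.97 and 2.55 on the log2 scale. Ighm, the constant region of immunoglobulin M, fell from 6.255, 11.58 and 13.22 CPM to 0.3247 and 1.271 CPM (-3.74 ± 0.619, adjusted p = 0.0242). It was the 1 tested gene of 9 B cell markers, 4 of which had 0 counts in all 5 libraries. The summed level of the list was 7.68 to 14 CPM in WT and 1.95 to 2.64 CPM in cKO, and the part of B cells in this result was not tested.

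Macrophage markers gave 0 calls among 14 tested, with a median of -0.08 and a summed level of 6000 to 8610 CPM in WT and 6700 to 7510 CPM in cKO, so both groups held the label's cell type. Adgre1 (F4/80) had 641.7, 1109 and 843.2 CPM in WT and 737 and 850.4 CPM in cKO, and the groups overlapped. Macrophage transcription factors gave 0 calls among 18 tested. Monocyte-stage markers gave 1 call among 7, Ly6a, with a summed level of 49.7 to 60.6 CPM in WT and 135 to 189 CPM in cKO. Without Ly6a the other 6 tested markers summed to 30.9, 40.4 and 35.5 CPM in WT and 30.4 and 38.3 CPM in cKO, which overlap. Abundant genes weigh most in such sums. Over the 7 markers the log2 fold change ran from -0.8 to 3.3 (median 0.59), and 5 had an unadjusted p under 0.05. In 4 of the 7 (57.1%, against 18% of all genes) both cKO libraries lay above every WT library, and in 1 below. Neutrophil markers summed to 42.2 to 52.8 CPM in WT and 57.2 to 69.6 CPM in cKO, with 0 calls among 2 tested. Stromal markers gave 0 calls among 12 with a median of 1.08. The list lay 1.23 above the WT mean (log2) in WT replicate 2 and 0.64 and 1.68 above it in the cKO libraries, and at -0.43 and -0.59 in WT replicates 1 and 3. The part of these cells in the results above was not tested.

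Growth and stress genes gave few calls. Of 36 proliferation genes Ccnd2 alone was called, with a median of -0.12, and Mki67 had 735.7, 247.5 and 548.3 CPM in WT and 461.6 and 394.6 CPM in cKO, which overlap. The 43 genes of nucleotide synthesis (median -0.09), 23 p53 targets (median 0.13) and 36 genes of apoptosis and lytic death (median 0.1) gave 0 calls. Among replacement histones, H3f3a alone was called of 10. The 10 tested replication-coupled H3 genes had a median of 0.36 and 0 calls, and the 14 H3.3 chaperones and partners a median of -0.11 and 0 calls, with Daxx at 0.9 (adjusted p = 0.0758). Without the poor IFNg library 1 p53 target, 2 genes of apoptosis and lytic death and 1 chaperone or partner were higher, and 0 nucleotide synthesis genes were called. A p that misses the threshold does not show that these genes were alike.

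The 80 genes were then followed in other BMDMs of the same genotypes, which share no library with the untreated day 8 cells. These were day 8 cells with IFNg for 12 h (3 WT and 2 cKO), day 7 cells (3 and 3), and cells cultured without antibody in the IFNAR1 antibody experiment (3 and 3). The IFNg libraries were in the fit that chose the 80 genes and share its estimate of the spread. Calls with IFNg are therefore not independent of that choice. The labels give no day for the cells without antibody, and the paper's methods put lysis in that experiment on day 6. Experiment and day of culture can therefore not be told apart in comparisons with them. Of the 66 higher genes 62 had the same direction with IFNg and 45 were called higher (3.20% of all genes were). Without the poor IFNg library 53 were called higher (6.32% of all genes). In that fit cKO IFNg replicate 2 stands alone, so these calls rest on 1 cKO library and do not show replication. Its effect sizes had a median log2 fold change of 1.31 over the 66 genes, 62 of them in the same direction. Iigp1, which was higher at rest, had a log2 fold change of -0.55 in it. On day 7, 66 of 66 had the same direction and 13 were called higher (0.690% of all genes), and without antibody 64 had the same direction and 54 were called higher (7.74% of all genes). The median log2 fold change of the 66 genes was 1.25 with IFNg, 1.1 on day 7 and 2.39 without antibody, beside 1.8 in untreated day 8 cells, by which they had been chosen.

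**Figure D5:**
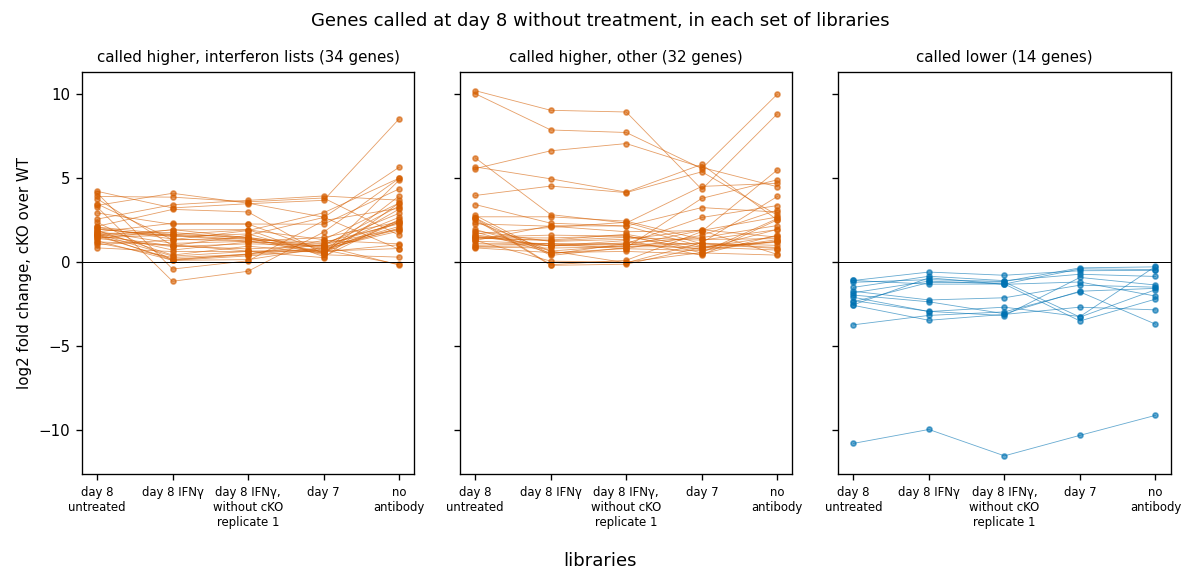
Log2 fold change of cKO against WT (y axis) of the 80 called genes, joined by lines across untreated day 8 cells, day 8 cells with IFNg (with and without cKO replicate 1), day 7 cells and cells without antibody, for 34 higher interferon genes, 32 other higher genes and 14 lower genes. Most lines stay on their side of 0 in every set of libraries.

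The 14 lower genes had the same direction in each of the 3 other settings. With IFNg 8 were called lower (1.63% of all genes), without the poor library 11 (3.17%), on day 7 5 (0.357%) and without antibody 6 (7.68%). Their medians were -1.79 with IFNg, -1.56 on day 7 and -1.54 without antibody, beside -2.03 in untreated day 8 cells. Without the poor library cKO IFNg replicate 2 stands alone, so the 11 calls rest on 1 cKO library and do not show replication. The median with IFNg was -1.73 in that fit. The sterol list as a whole had medians of -0.61 with IFNg, -0.41 on day 7 and -0.32 without antibody, with 7, 0 and 3 genes called lower.

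Whether the difference between cKO and WT itself differed from that in untreated day 8 cells was tested as an interaction. Against IFNg 0 of 13075 genes were called by edgeR (1105 with an unadjusted p under 0.05, 49 called by DESeq2). Without the poor IFNg library cKO IFNg replicate 2 stands alone, so effect sizes alone are given for the difference in that fit. The genes given were chosen after their values were seen. Among them were GTPase genes that were higher in cKO at rest and had a log2 fold change near or below 0 in this 1 cKO library with IFNg. Iigp1 had a log2 fold change of 3.26 at rest and -0.55 with IFNg (difference -3.8), and Gbp6 had 4.08 and 0.07 (difference -4.01). For Zbp1 the values were 2.35 and 0.48 (difference -1.88). In the other direction Klf4, a transcription factor, had -0.11 and 2.4 (difference 2.51). Over the 18 GTPases the median was -0.34 with IFNg, and 0.24 without the poor library.

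Against day 7, 0 of 16807 genes were called by edgeR (479 with an unadjusted p under 0.05, 2 called by DESeq2). Antiviral effectors had a median of 0.62 and 0 calls among 37 on day 7, and all 37 had a log2 fold change above 0. WT day 7 replicates could spread widely, as at Oasl1, with 25 ± 32.8 CPM (SD) in WT and 119 ± 67.4 CPM in cKO. Against cells without antibody 9 genes were called (0.0535%), 3 with the larger value and 6 with the smaller value in untreated day 8 cells. Leaving out either untreated cKO library gave 0 calls, leaving out WT no antibody replicate 1 gave 1085, and leaving out one of the others gave 2 to 8. H3f3b was among them, with a log2 fold change of -0.31 in untreated day 8 cells and -2.95 without antibody (difference 2.63 ± 0.339, adjusted p = 0.0135), while H3f3a fell in both, by 2.58 and 2.85. Atp1b3 had 1.8 and 3.09 (difference -1.29 ± 0.2, adjusted p = 0.0248). Antiviral effectors had a median of 2.15 without antibody, with 33 of 37 called higher.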

How the data were processed

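BMDM RNA was rRNA-depleted, made into paired-end libraries and sequenced on NextSeq instruments. The authors trimmed reads with Cutadapt and aligned them with STAR to mm10 (GRCm38). The deposited values are STAR's raw counts per gene, not normalized, of which the column without strand was used. Identifiers were paired with symbols for 54079 genes. Lines for unmapped, multimapping, unassigned and ambiguous reads stayed out of library sizes. Genes were filtered with filterByExpr (minimum count 10, minimum total 15), and TMM set the scale of each library. The quasi-likelihood test came from edgeR 4.0.16, run in R 4.3.3 with limma 3.58.1, on 10 day 8 libraries in 4 groups. Day 7 and no-antibody cells were tested in a joint fit of 17 libraries. P-values were adjusted by Benjamini-Hochberg over all genes tested, calls needed an adjusted p under 0.05, and each SE is the fold change over the root of its F statistic. With 3 against 2 libraries an exact permutation test cannot go below p = 0.1, so none is given. P-values measure the spread between these libraries, which the labels call biological replicates. The script was tested on simulated counts.

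The libraries, the gene lists and the tests were chosen with earlier results of these data known. Named are genes that the study names or targets, the 12 higher and 12 lower called genes with the largest change (groups not overlapping, mean log2 CPM 3 or more), genes that are called members of a list (up to 4 each way, or up to 3 of the most abundant where fewer than 2 are called), and genes that lead a difference between settings. Others are said to be chosen after their values were seen, or stand in lists of called genes. The sequences are from RefSeq (GRCm38.p6). One of the genes so named is not reported here. The alternatives were DESeq2 1.42.0, RLE scaling, no filter, a minimum mean of 1 CPM, a fit of the compared groups alone, the strand column, a replicate block, an absolute log2 fold change of at least 1, leaving out each library, and, added after seeing the data, leaving out cKO IFNg replicate 1.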

Additional observations from a re-analysis of the deposited data

Results flagged for a closer look

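Untreated day 8 cells and cells without antibody come from different experiments and may differ in day of culture. Their log2 fold changes of cKO against WT differed, by a test of the difference itself (edgeR), for 9 genes. The other two, Gm37696 and Gm30329, have no named product, and 7 are given here. The difference (untreated day 8 minus no antibody) was 2.63 for H3f3b, 2.41 for Rpl29 and 1.55 for Sgk1. It was -2.93 for Mcoln3, -1.56 for Ppm1h, -1.35 for Brpf3 and -1.29 for Atp1b3. Mcoln3, a lysosomal calcium channel gene, had a log2 fold change of 0.42 in untreated day 8 cells and 3.35 without antibody (adjusted p = 0.0176). Rpl29, a ribosomal protein gene with many processed copies that can share its reads, had 0.05 and -2.36. Leaving out either untreated cKO library left 0 of the 9 calls.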

How the results depend on the processing

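In untreated day 8 cells, where 80 genes were called, DESeq2 called 183 (78 of the 80 among them), edgeR without a filter 355, with only the 5 untreated libraries 367 and without cKO IFNg replicate 1 292. Leaving out one of the 5 untreated libraries gave 10 to 49, and with cKO IFNg replicate 1 among those left out the range was 10 to 292. The other 4 IFNg libraries were not left out for this count. RLE scaling gave 80, a mean of at least 1 CPM 79, an absolute log2 fold change of at least 1 75 and the strand column 72. The replicate number as a block gave 56, of which 51 were among the 80, but libraries of the same number did not deviate together (correlations 0.033 and 0.085), so no pairing was shown. For the difference from IFNg, with 0 calls, DESeq2 gave 49 and no filter 231, and leaving out a library 0 to 3359, the latter without cKO IFNg replicate 2, where the poor library stands alone. For the difference from day 7, with 0 calls, DESeq2 gave 2 and no filter 78. For that from no antibody, with 9, DESeq2 gave 140, no filter 505, the replicate block 1, and leaving out a library 0 (either untreated cKO library) to 1085 (WT no antibody replicate 1). The causes were not tested.

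Of 1037 values of single genes under the alternatives, 817 kept direction and side of the threshold, 182 lost the call, 32 gained one and 6 turned direction, all of them small: Adgre1 to 0.08 without WT replicate 2 (lowest -0.31 with a library left out), Brpf3 to 0.08 with the strand column and 0.06 without cKO replicate 2 (lowest -0.23), Mki67 to 0.09 without WT replicate 1, and Rpl29 to -0.21 and -0.22 without WT replicate 1 and cKO replicate 1 (highest 0.26). Of 624 list medians 568 moved by less than the spread between replicates. Those that turned were the dendritic cell markers, 0.22 in the report's fit, at -0.19 with a mean of at least 1 CPM, -0.15 with the strand column, -0.6 with only the 5 libraries, and -0.12, -0.22, -0.32 and -0.01 without WT replicate 2, WT replicate 3, cKO replicate 1 and cKO replicate 2 (highest 0.43), and the matrix metalloproteinases, 0.44, at -0.16 without cKO replicate 2 (highest 0.59). With 2 cKO libraries, the spread within cKO rests on a single difference, and low genes such as Gbp6 and Apol9b rest on few counts.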

Other observations

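The 2 cKO day 8 libraries whose title and library name disagree on IFNg entered no comparison. Their values, in CPM without TMM scaling, are given beside the range of the placed cKO libraries. The library titled with IFNg but named untreated had 7.34 CPM of H3f3a, 9.82 of Lyz2, 58.6 of Oasl1, 19.3 of Iigp1 and 28.8 of Gbp2. The library titled untreated but named with IFNg had 4.76 CPM of H3f3a, 2.67 of Lyz2, 930 of Oasl1, 1840 of Iigp1 and 5740 of Gbp2. Untreated cKO libraries had 26.8 to 27.1 CPM of Iigp1 and 34.9 to 37.5 of Gbp2, and cKO libraries with IFNg had 305 to 1730 and 1520 to 5340.

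Other gene groups gave 0 calls at rest in the fit of 10 libraries. Of 23 tested cytokine and chemokine genes 0 were called (median 0.41, 4 with an unadjusted p under 0.05), and 1 was higher without the poor library. Of 28 lysosomal genes 0 were called, with both cKO libraries above every WT library in 14 (18% of all genes did so) and a median of 0.14, and 1 was higher without the poor library. Of 11 costimulatory and checkpoint ligand genes 0 were called, with both cKO libraries above in 7 and a median of 0.52, and 2 were higher without the poor library. The 7 tested mitochondrially encoded genes were all below 0 (median -0.31) with 0 calls. Among genes the study names, Bcl2l11, which encodes the death protein BIM, had 63.54, 76.9 and 64.25 CPM in WT and 116.2 and 109.8 CPM in cKO (log2 fold change 0.73, adjusted p = 0.804 in edgeR), and it passed in the fit of the 5 untreated libraries alone (adjusted p = 0.00634). Lpin1, Rac3 and Sptssa, of lipid metabolism and signalling, had log2 fold changes of -0.97, -0.86 and -0.6 and were not called. With only the 5 untreated libraries Lpin1 (adjusted p = 0.00641) and Sptssa (adjusted p = 0.00365) passed and Rac3 did not (adjusted p = 0.159).

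Library sex also differed among day 8 cells with IFNg: WT replicate 3 had 879.9 CPM of Xist and 0 CPM over the 4 Y-linked genes, and cKO replicate 1, the poor library, had 27.17 CPM of Xist and 106.9 CPM over them.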
